A study of Rattus norvegicus with 8 samples.

Results

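The genes described here encode 34 plasma proteins of the liver, 17 acute phase proteins and 17 complement proteins, taken from a fixed list of symbols. Each was represented by its brightest probe in the sample channel. A probe carried the name of 32 of the 34 genes, and Itih2 and C5 had no probe named for them here. All 32 passed the filter for signal above background, among 10566 genes or unnamed probes tested of 27530 on the array.

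The RNA came from livers of male Sprague-Dawley rats at 21 days of age whose dams were dosed during gestation and lactation and whose litters stayed with their birth mothers. The control group (Control) came from dams given corn oil. The mixture group (0.5MAhR) was born to dams that received, in the same oil, a contaminant mixture at 0.5 mg/kg/day made up of methyl mercury, polychlorinated biphenyls and organochlorine pesticides. To it were added ligands of the aryl hydrocarbon receptor (AhR), namely non-ortho biphenyls, dioxins and furans, for 6.3 ng/kg/day of dioxin equivalents in total. Each array held RNA pooled from 2 pups, with 4 arrays in each group, and the comparison asked how hepatic expression in offspring differed after maternal dosing. Which pups shared a litter is not stated in the labels, and p-values therefore reflect differences among pools.

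The acute phase response is the change in the plasma proteins made by hepatocytes during infection, injury or inflammation. Interleukin 6 acting through STAT3, interleukin 1 acting through NF-kB, and C/EBP factors drive the transcription of many of these genes, and some, such as Ahsg, go down while others go up. Complement is a cascade of plasma proteases and pore-forming proteins, largely made in the liver, that starts through the classical, lectin or alternative pathway, meets at C3 and ends in the membrane attack complex. The AhR is a transcription factor that binds dioxins and related planar compounds.

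Promoter sequences are shown for 6 members whose values are described in this account, because they carry the motifs of the factors named above. RefSeq promoters of assembly GRCr8 matched 25 of the 34 members, and the 250 bases before the gene start were read 5′ to 3′ on the gene's strand. No promoter was matched for Saa4, Lbp, Hp, A2m, C1s, C2, C9, Cfb and Masp2, so the motif shares leave these members out. Capitals mark every match, on either strand, to TTNNGNAA (C/EBP), TTCNNNGAA (STAT), GGNNTTTCC (NF-kB), GCGTG (the core of the AhR site) or GTTAATNAT (HNF1).
Orm1 (chr5:81788259-81788508, plus strand): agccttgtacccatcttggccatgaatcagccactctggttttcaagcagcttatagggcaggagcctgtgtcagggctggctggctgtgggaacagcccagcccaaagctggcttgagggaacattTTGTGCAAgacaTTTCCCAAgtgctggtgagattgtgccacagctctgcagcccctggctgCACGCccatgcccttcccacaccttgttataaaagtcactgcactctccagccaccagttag
Crp (chr13:87693812-87694061, plus strand): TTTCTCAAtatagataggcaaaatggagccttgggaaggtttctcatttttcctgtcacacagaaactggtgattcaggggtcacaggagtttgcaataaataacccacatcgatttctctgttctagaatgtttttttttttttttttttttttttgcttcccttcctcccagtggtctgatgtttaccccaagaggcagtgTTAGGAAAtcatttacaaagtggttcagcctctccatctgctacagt
Serpina3n (chr6:129088142-129088391, plus strand): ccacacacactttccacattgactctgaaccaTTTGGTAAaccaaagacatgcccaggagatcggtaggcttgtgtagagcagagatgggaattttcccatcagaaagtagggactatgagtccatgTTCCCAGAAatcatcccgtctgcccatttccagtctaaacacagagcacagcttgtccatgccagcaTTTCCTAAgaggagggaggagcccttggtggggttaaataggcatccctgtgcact
C3 (chr9:2201340-2201589, minus strand): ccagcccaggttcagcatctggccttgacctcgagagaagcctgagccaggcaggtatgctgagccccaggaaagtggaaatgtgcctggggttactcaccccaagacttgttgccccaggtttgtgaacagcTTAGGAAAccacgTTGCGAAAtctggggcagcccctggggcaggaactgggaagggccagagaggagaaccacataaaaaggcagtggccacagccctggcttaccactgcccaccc
Cfi (chr2:221063066-221063315, plus strand): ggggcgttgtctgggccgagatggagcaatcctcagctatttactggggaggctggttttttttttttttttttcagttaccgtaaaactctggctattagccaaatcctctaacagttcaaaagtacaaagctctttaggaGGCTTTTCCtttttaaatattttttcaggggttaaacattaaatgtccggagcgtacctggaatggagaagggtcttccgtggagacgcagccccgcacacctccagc
C4bpa (chr13:44663472-44663721, minus strand): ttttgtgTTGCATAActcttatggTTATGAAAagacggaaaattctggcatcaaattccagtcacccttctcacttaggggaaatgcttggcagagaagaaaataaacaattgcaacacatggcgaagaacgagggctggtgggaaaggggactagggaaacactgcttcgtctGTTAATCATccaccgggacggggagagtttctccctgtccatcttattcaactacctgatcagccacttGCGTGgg

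The C/EBP letters were present in 20 of the 25 promoters (80%), against 37.2% of 33469 rat promoters of the same length. They were found in 11 of 13 acute phase promoters and in 9 of 12 complement promoters. The Orm1 window held TTGTGCAA from base -123 to -116 before the start and TTTCCCAA from -111 to -104, and the C3 window held TTAGGAAA and TTGCGAAA. Matches to the STAT letters stood in 3 promoters (12%, against 7.67% of all), those of Serpina3n, Itih4 and C8a, and in Serpina3n and Itih4 the match was the same 9 letters, TTCCCAGAA. The NF-kB letters were found in 1 promoter, that of Cfi (4% against 5.19%). The AhR core stood in 4 (16% against 25.9%), those of Orm1, Ahsg, C4bpa and Masp1. C4bpa and C5 held the HNF1 letters, 8% of the 25 against 0.666% of all. None of these motif letters overlapped another in the windows shown. These are matches of letters in a short window and say nothing of binding.

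The arrays were hybridised with the liver sample in Cy5 against a universal reference in Cy3, an RNA pool of 14 rat cell lines, so each value is a log2 ratio of liver over reference. Median Cy5 signals were 81 to 94 intensity units over backgrounds of 68 to 73. Slide column here is the first number of the position code that ends each scan's name, read as a column. By that reading the arrays lay in 2 columns of 1 slide, each with 2 arrays of each group. Of all genes tested 56.9% differed between the columns (limma, adjusted p under 0.05). Across genes, r between arrays was 0.981 to 0.991 within a column and 0.938 to 0.962 between columns. Control replicates 5 and 7 and mixture replicates 2 and 4 lay in column 1, the others in column 2. Slide column was therefore a term of the fit, and differences within each column are given. With 4 arrays a group, their number sets the precision.

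The sample channel stood well above background for all 32 measured members on all 8 arrays, and no member had a saturated spot. In control livers 26 of the 32 exceeded the reference by over 10-fold, and the mean log2 ratio ran from -0.78 for Lcn2 to 8.71 for Itih4. Lcn2, a siderophore-binding protein also made by neutrophils, and Cfd, a complement protease made chiefly in fat, were the 2 members below the reference. The Cy3 spots of Crp, Mbl2 and Masp2 were not well above background on any array, so the ratios of these 3 members were formed against a reference near background. The same limit applied to C6, whose Cy3 spot was well above background on 1 of the 8 arrays, and in part to Apcs (5 arrays) and Mbl1 (7 arrays). Masp1 was marked well above background on all 8 arrays, with Cy3 at only 26 to 52 intensity units above background.

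No member passed the threshold. Of all genes tested 0.0473% (5 of 10566) had an adjusted p under 0.05, and the smallest among the members was 0.416, for Saa4. An unadjusted p under 0.05 was found for 6 of the 32 members (18.75%), against 6.34% of all genes tested, and all 6 of these differences were negative (Saa4, Lbp, A2m, Itih3, Cfi and C4bpa). Without slide column in the fit the count was 4 of 32, against 1.53% of all genes tested, again with none past the threshold. The difference, mixture minus control, was negative for 27 of 32 members, for 25 with median centring in place of loess, and for 22 in Cy5 alone. Its median was -0.15 on the log2 scale, against -0.01 for all genes tested, of which 53.2% had a negative difference. Among the 473 genes over 10-fold above the reference in controls, a group chosen after the values were seen and holding 26 of the members, 68.5% of differences were negative, the median was -0.07 and 18.6% had an unadjusted p under 0.05. In whole liver, fewer cells of a type and less RNA per cell cannot be told apart.

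**Figure D1:**
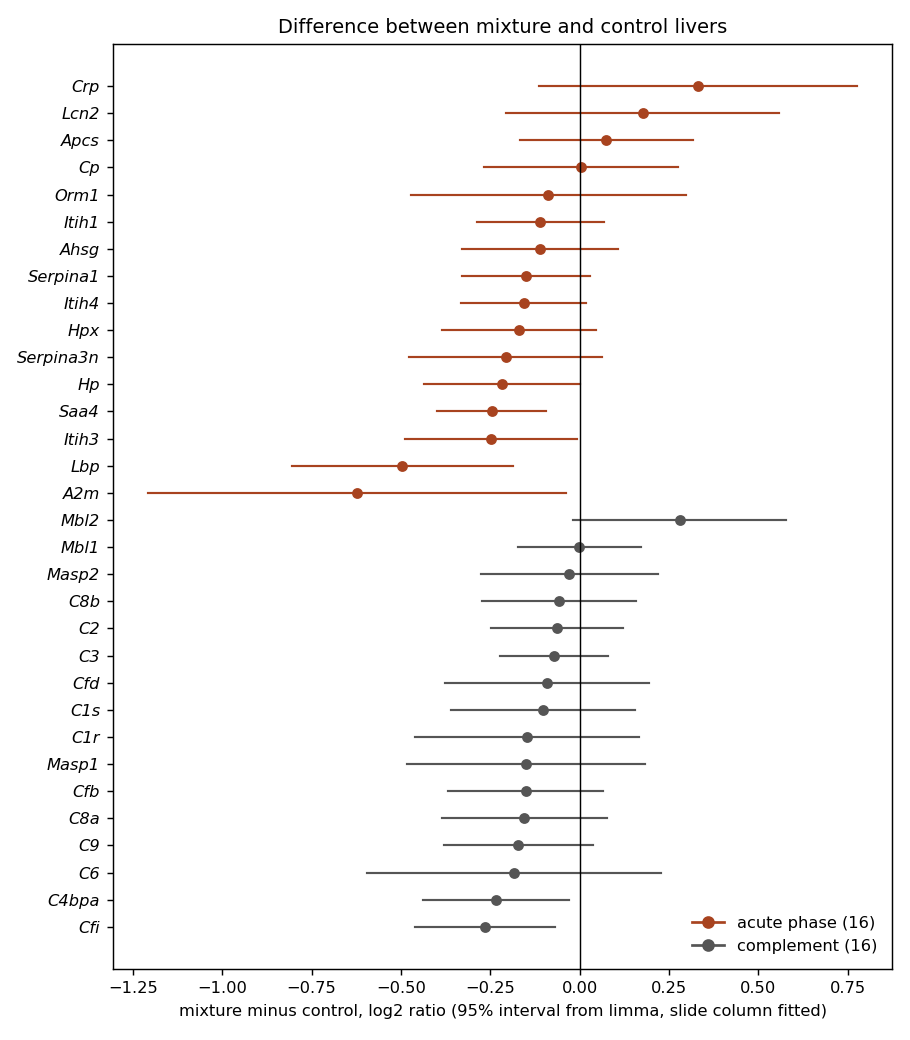
Difference in log2 ratio between 4 mixture and 4 control arrays for the 32 measured members, with 95% intervals from limma with slide column fitted (points, estimates; lines, intervals; colours, the 2 classes). Most points lie left of 0, from -0.62 for A2m to 0.33 for Crp, and none passed the adjusted threshold.

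The intervals bound what these arrays could show. For 31 of the 32 members the 95% interval lay within a 2-fold difference in either direction, and for 28 within 1.5-fold. The exception at 2-fold was A2m, with an interval from -1.21 to -0.04. A p that misses the threshold does not show that the groups were equal.

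Among proteins that bind lipids and bacterial products, Saa4 and Lbp had the smallest p-values of all members. Saa4 encodes the constitutive serum amyloid A, an apolipoprotein of high-density lipoprotein. Its log2 ratio was 8.0, 8.10, 8.10 and 8.06 in control replicates 5 to 8 and 7.71, 7.88, 7.81 and 7.88 in mixture replicates 1 to 4. Every mixture array lay below every control array, an order seen for 1 of the 32 members, while 0.53% of all genes tested had all 4 mixture arrays below and 0.786% had them all above. Control livers averaged 8.07 ± 0.05 (SD, n = 4), and mixture livers averaged 7.82 ± 0.08 (SD, n = 4). Saa4 thus differed by -0.25 (SE 0.07, limma adjusted p = 0.416), a ratio of 0.843. The difference was -0.17 in column 1 and -0.32 in column 2, and a second Saa4 probe gave -0.39. On that second probe the groups overlapped, with mixture replicate 3 at 5.33, above control replicate 5 at 5.20. The reference channel of the brightest Saa4 probe differed as well, by -0.17 in Cy3 alone, and in Cy5 alone the difference of that probe was -0.28. Across all genes 3.58% had an unadjusted p under 0.05 in Cy3 alone, and among the members 3 did, the others being Lcn2 and C8a at 0.08 each.

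Lbp encodes the lipopolysaccharide-binding protein, which hands bacterial endotoxin to its receptor on immune cells. The log2 ratio was 1.72, 2.50, 2.43 and 2.28 in control replicates 5 to 8 and 1.83, 1.69, 1.78 and 1.65 in mixture replicates 1 to 4. Control replicate 5 lay among the mixture arrays, the other 3 control arrays above all of them, and the groups overlapped. Lbp differed by -0.50 (SE 0.14, limma adjusted p = 0.426), which is a ratio of 0.709. Without control replicate 5 the difference was -0.66 with an adjusted p of 0.103, and over all single arrays left out it ran from -0.66 to -0.37. Within columns it was -0.41 and -0.58. Both mixture arrays lay below both control arrays in each column for Lbp, Saa4 and Hp, 3 of 32 members, against 3.41% of all genes tested. No member had both above in each column, against 3.28%.

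Protease inhibitors and the heavy chains of inter-alpha-trypsin inhibitor, which attach to hyaluronan, gave the next group. A2m, a protease trap and a major acute phase protein of the rat, had log2 ratios of 3.48, 3.33, 3.68 and 4.02 in control replicates 5 to 8 and 2.50, 3.55, 3.43 and 2.54 in mixture replicates 1 to 4. Mixture replicates 1 and 4 were well below the other mixture arrays, which lay within the range of the controls. A2m therefore had the largest residual spread of all 32 members and a difference of -0.62 (SE 0.26, limma adjusted p = 0.742). The low arrays lay in different columns, where the differences were -0.54 and -0.71, and the other A2m probe gave -0.54. Leaving out single arrays gave from -0.84 to -0.42.

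Itih3 read 6.93, 6.84, 7.02 and 7.0 in control replicates 5 to 8 and 6.37, 7.02, 6.46 and 6.94 in mixture replicates 1 to 4. The 2 mixture arrays of column 2 were low and the 2 of column 1 lay with the controls. Its difference over all 8 arrays was -0.25 (SE 0.11, limma adjusted p = 0.77), 0.00 in column 1 and -0.50 in column 2. Serpina3n, a serine protease inhibitor of the antichymotrypsin family, had the same layout, with 0.07 in column 1 and -0.48 in column 2. Serpina1, the inhibitor of neutrophil elastase, differed by 0.00 and -0.30 in the 2 columns. Itih1 and Itih4 differed by -0.11 and -0.16. Ahsg, known as fetuin A and as a negative acute phase protein, differed by -0.11, with 0.12 in column 1 and -0.34 in column 2.

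**Figure D2:**
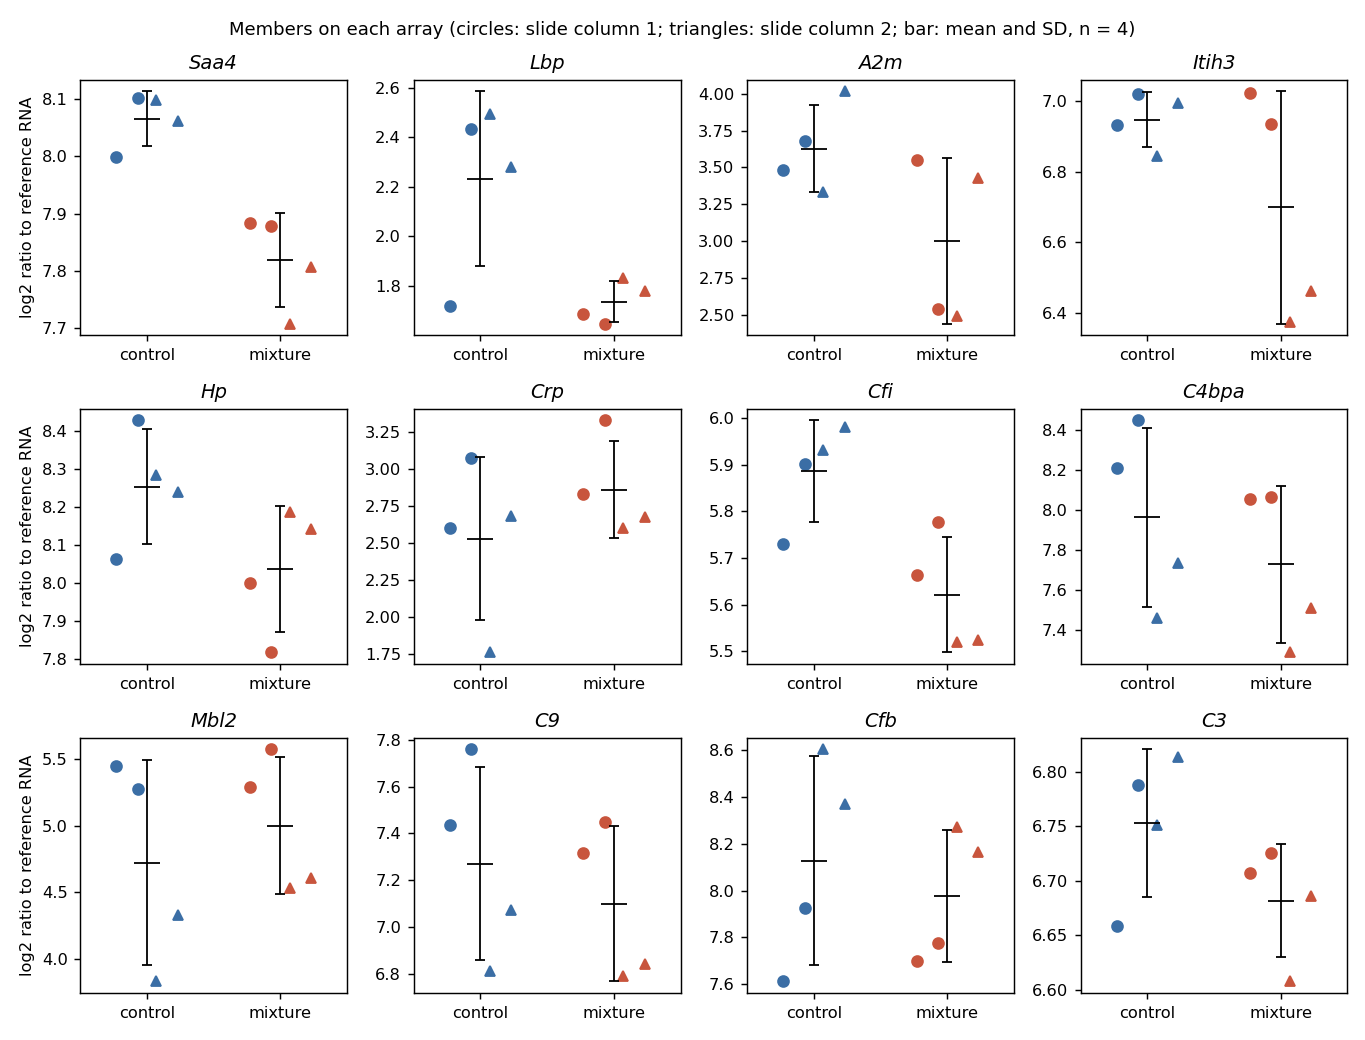
Log2 ratio to the reference RNA on each of the 8 arrays for 12 members, control in blue and mixture in red (circles, slide column 1; triangles, slide column 2; bars, mean and SD of 4 arrays; each panel has its own axis). Each panel shows the brightest probe of the gene. Saa4 shows groups that do not overlap, C4bpa, C9, Cfb and Mbl2 show arrays split by slide column, and the other panels show overlapping groups.

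Carriers of haemoglobin, haem and metal followed. Hp, haptoglobin, which binds free haemoglobin, read 8.06, 8.29, 8.43 and 8.24 in control replicates 5 to 8 and 8.19, 8.0, 8.14 and 7.82 in mixture replicates 1 to 4. Mixture replicate 4 was lowest and control replicate 7 highest, and control replicate 5 lay below both mixture arrays of column 2. Hp differed by -0.22 (SE 0.10, limma adjusted p = 0.794), with -0.34 and -0.10 in the columns, -0.08 in Cy5 alone and -0.12 without control replicate 7. Hpx, which binds haem, differed by -0.17. Cp, the copper-carrying ferroxidase, differed by 0.00, from -0.21 in column 1 and 0.22 in column 2. Lcn2 differed by 0.18 and was the member with the lowest ratio to the reference.

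Orm1, alpha-1-acid glycoprotein, a carrier of lipophilic drugs, read 5.76, 5.48, 6.52 and 5.99 in control replicates 5 to 8 and 5.69, 6.20, 5.70 and 5.82 in mixture replicates 1 to 4. A single control array, replicate 7, was highest and another, replicate 6, was lowest, so that the mixture arrays lay inside the control range. The Orm1 difference was -0.09 (SE 0.17, adjusted p = 0.953), and it was 0.04 in Cy5 alone and -0.25 with processed signals.

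The pentraxins, which bind microbial surfaces and activate the classical pathway, were among the 4 acute phase members with positive differences (3 with processed signals, 7 in Cy5 alone). Crp had log2 ratios of 2.60, 1.76, 3.07 and 2.68 in control replicates 5 to 8 and 2.60, 2.83, 2.67 and 3.33 in mixture replicates 1 to 4. Control replicate 6 lay far below the other controls and mixture replicate 4 above all, and the remaining arrays were mixed. The Crp difference of 0.33 was the highest of all members (SE 0.20, limma adjusted p = 0.87). It was 0.24 and 0.42 in the columns, and 0.13 without control replicate 6. Its sample signal was dim, from 80 to 261 intensity units above background. Apcs, serum amyloid P, differed by 0.08 in all and by 0.07 and 0.08 in the columns.

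Over the 16 acute phase members the difference was negative for 12 and positive for 4, with a median of -0.15. The median was -0.03 in column 1 and -0.27 in column 2. In Cy5 alone 9 of 16 were negative and the median was -0.03, and without control replicate 8 the median was -0.10.

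C3 stands where the pathways of complement meet, and its transcript was close to level across the arrays. The log2 ratio of C3 was 6.66, 6.75, 6.79 and 6.81 in control replicates 5 to 8 and 6.61, 6.71, 6.69 and 6.73 in mixture replicates 1 to 4. Control replicate 5 lay within the range of the mixture arrays and the other 3 controls above them. The C3 difference was -0.07 (SE 0.07, limma adjusted p = 0.917), with an interval from -0.22 to 0.08. Under median centring it was 0.02.

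The classical pathway was measured through C1r and C1s, the proteases of its first complex, and C2, the protease of the next convertase. C1r gave 1.57, 1.72, 1.57 and 1.17 in control replicates 5 to 8 and 1.0, 1.38, 1.54 and 1.52 in mixture replicates 1 to 4. Mixture replicate 1 was lowest and control replicate 6 highest, with control replicate 8 below 3 of the mixture arrays. The differences were -0.15 for C1r (SE 0.14; -0.03 without control replicate 6 and -0.25 without control replicate 8), -0.10 for C1s and -0.06 for C2. A second C2 probe gave -0.19.

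In the lectin pathway the mannose-binding lectins recognise microbial sugars and the Masp proteases cleave the next components. Mbl2 gave 5.45, 3.83, 5.27 and 4.33 in control replicates 5 to 8 and 4.53, 5.29, 4.60 and 5.58 in mixture replicates 1 to 4. Arrays of column 1 were high and those of column 2 low in both groups, with a column difference of -1.08, the most negative of the members. Beside it the group difference was 0.28 (SE 0.13, limma adjusted p = 0.813), at 0.07 in column 1 and 0.49 in column 2, and it was the single positive difference among 16 complement members, although C3 and Mbl1 also turned positive, at 0.02 and 0.00, with median centring. Mbl2 differed by 0.03 when the processed signals of the scanner software were used. Mbl1 gave 5.11, 5.76, 5.23 and 5.67 in control replicates 5 to 8 and 5.84, 5.0, 5.71 and 5.21 in mixture replicates 1 to 4. Its columns were ordered the other way, with a column difference of 0.61, and its group difference was -0.00 (SE 0.08, interval from -0.17 to 0.17). With processed signals the Mbl1 difference was -0.32 (SE 0.08, limma adjusted p = 0.356), outside that interval. Its Cy3 signal was dim, from 25 to 39 intensity units above background. Thus the single probes of 2 lectins of like function had column differences of opposite sign.

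Masp1 read 4.32, 3.38, 4.55 and 3.86 in control replicates 5 to 8 and 3.39, 3.96, 3.82 and 4.34 in mixture replicates 1 to 4. Column 1 was again higher for the controls, and mixture replicates 2 and 3 lay close together across the columns. Masp1 differed by -0.15 (SE 0.15, adjusted p = 0.922), from -0.27 without control replicate 6 to -0.05 without mixture replicate 2. The 2 further Masp1 probes gave -0.17 (SE 0.16) and -0.33 (SE 0.18). Both were dim, with Cy5 at 16.5 to 59.5 and 51.5 to 181 intensity units above background. Masp2 differed by -0.03.

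Cfb, the protease of the alternative pathway's convertase, gave 7.61, 8.60, 7.93 and 8.37 in control replicates 5 to 8 and 8.27, 7.70, 8.16 and 7.78 in mixture replicates 1 to 4. Values of column 2 were higher in both groups, and within column 2 both controls exceeded both mixture arrays. The Cfb difference was -0.15 (SE 0.10, limma adjusted p = 0.877), with -0.03 and -0.27 in the columns. Cfd, which cleaves factor B, differed by -0.09, with 0.14 in column 1 and -0.33 in column 2.

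The terminal components form the membrane pore. C9, which lines the pore, gave 7.44, 6.81, 7.76 and 7.07 in control replicates 5 to 8 and 6.79, 7.32, 6.84 and 7.45 in mixture replicates 1 to 4. Arrays divided by column first, and the groups overlapped. C9 differed by -0.17 (SE 0.09, limma adjusted p = 0.864), at -0.22 and -0.13 in the columns. C6 gave 5.50, 5.08, 5.69 and 5.89 in control replicates 5 to 8 and 5.12, 5.15, 5.66 and 5.52 in mixture replicates 1 to 4, and its highest and lowest arrays were both controls. It had the largest residual spread of the complement members, with a difference of -0.18 (SE 0.18, adjusted p = 0.923). That difference was -0.04 with processed signals, and ran from -0.36 without control replicate 6 to -0.04 without control replicate 8. C8a and C8b, subunits of C8, differed by -0.15 and -0.06, and a second C8a probe gave -0.02 (SE 0.18). That probe was dim, with Cy5 at 51.25 to 116.5 intensity units above background and a Cy3 spot not well above background on any array.

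The regulators had the smallest p-values of the complement members. Cfi, the protease that degrades C3b and C4b, read 5.73, 5.93, 5.90 and 5.98 in control replicates 5 to 8 and 5.52, 5.66, 5.52 and 5.78 in mixture replicates 1 to 4. Mixture replicate 4 lay above control replicate 5, and all other mixture arrays lay below all controls. Cfi differed by -0.26 (SE 0.09, limma adjusted p = 0.598), a ratio of 0.832, with -0.09 in column 1 and -0.43 in column 2. C4bpa, the chain of C4b-binding protein that serves as a cofactor of that protease, gave 8.21, 7.46, 8.45 and 7.74 in control replicates 5 to 8 and 7.29, 8.06, 7.51 and 8.06 in mixture replicates 1 to 4. Each control array exceeded at least 1 mixture array of its own column, but column 1 stood above column 2 in both groups. The C4bpa difference was -0.24 (SE 0.09, limma adjusted p = 0.712), with -0.27 and -0.20 in the columns and -0.19 in Cy5 alone.

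Complement differences were negative for 15 of 16 members, with a median of -0.12 and a range from -0.26 to 0.28. With median centring 13 of 16 were negative, and 13 of 16 in Cy5 alone. Single arrays moved the complement median, which was -0.04 when mixture replicate 1 was left out and -0.08 when mixture replicate 2, control replicate 6 (11 of 16 negative) or control replicate 7 was left out. Within columns the medians were -0.05 and -0.13. Each class had 10 members with the same sign in both columns, 20 of 32 in all, of which 16 were negative in both and 4 positive in both. Among all 10566 genes tested 5473 had the same sign in both columns, and 2860 were negative in both.

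More members differed between slide columns than between groups. The columns differed past an adjusted p of 0.05 for 19 of 32 members (59.4%), near the 56.9% of all genes, and for 12 of 16 complement members against 7 of 16 acute phase members. The sign varied, with 7 higher in column 2 and 12 lower. Itih4 differed between the columns by -1.03, C8b by -0.95, Hpx by -0.78 and C4bpa by -0.70, while C2 differed by 0.81, Cp by 0.68, Masp2 by 0.65 and Cfb by 0.60. The largest group difference, -0.62 for A2m, was smaller than these except Cfb, and A2m itself differed by 0.01 between the columns. These column differences are those of the brightest probe of each gene. The second C2 probe had the opposite order, with 3.29 to 3.56 in column 1 and 2.43 to 3.00 in column 2.

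**Figure D3:**
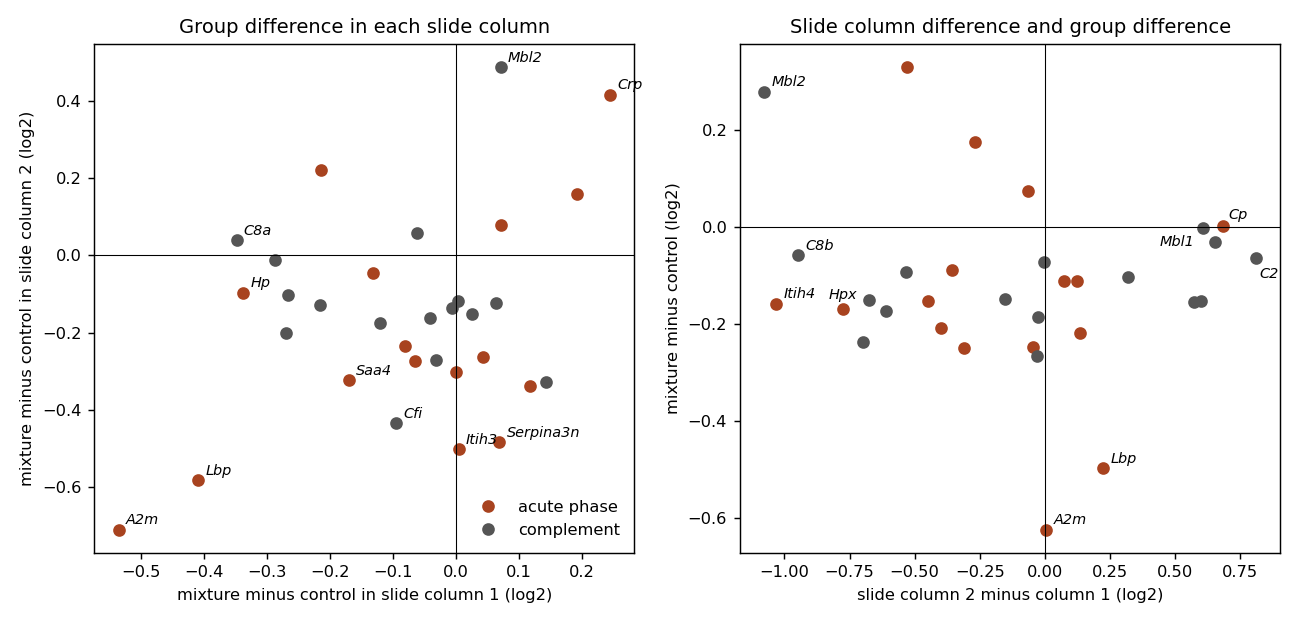
Left, the difference between mixture and control arrays within slide column 1 (horizontal, log2) and column 2 (vertical, log2), each from 2 against 2 arrays; right, the difference between slide columns (horizontal, log2) and between groups (vertical, log2). Points are the 32 measured members, each by its brightest probe, with 16 in the lower left quadrant of the left panel. Column differences run from -1.08 for Mbl2 to 0.81 for C2.

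By array, the classes were set against the control mean of the same column. Acute phase members averaged -0.16 on control replicate 5 and 0.16 on control replicate 7, and -0.08 and 0.08 on control replicates 6 and 8. Mixture replicates 1 to 4 averaged -0.25, -0.04, -0.16 and -0.11. All 4 mixture arrays were thus negative, but replicates 2 and 4 lay inside the range of the controls of column 1, while replicates 1 and 3 of column 2 lay below both controls there. Complement members averaged -0.06, -0.03, 0.06 and 0.03 on control replicates 5 to 8, and -0.20, -0.17, -0.02 and -0.01 on mixture replicates 1 to 4. Mixture replicates 1 and 2 lay below both controls of their columns and replicates 3 and 4 between them. The same mean over all genes tested lay between -0.04 and 0.03 on every array.

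The classes did not order the mixture arrays alike. The acute phase mean minus the complement mean was -0.05, 0.14, -0.14 and -0.11 on mixture replicates 1 to 4 and from -0.09 to 0.09 on the controls. Each control is part of the mean it was set against, so the control range is not comparable with that of the mixture arrays. Mixture replicate 2 was the lowest of the 4 arrays of its column for 12 members, 11 of them complement. Mixture replicate 4, in the same column, was lowest for 6, all acute phase. In column 2 mixture replicate 1 was lowest for 16 of 32 members, 6 acute phase and 10 complement. Control replicate 7 was highest in its column for 20 of 32, and control replicate 5, beside it, was lowest for 11, 8 of them acute phase. The difference between the classes was not tested.

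**Figure D4:**
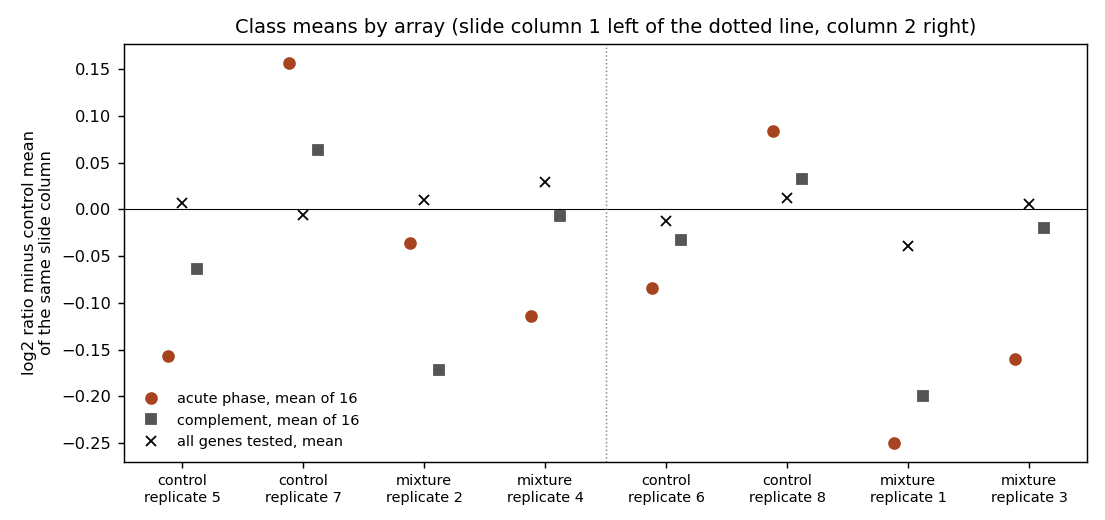
Mean of 16 acute phase members, of 16 complement members and of all genes tested on each array, as log2 ratio minus the control mean of the same slide column (column 1 left of the dotted line, column 2 right). The 2 controls of a column mirror each other by construction; acute phase means of the mixture arrays run from -0.25 to -0.04 and complement means from -0.20 to -0.01.

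Other genes of the same pathways were read from lists that do not contain the members. None passed the threshold. Of 18 other acute phase genes 14 were tested, 13 with a negative difference (11 in Cy5 alone), with a median of -0.18 and 7 with an unadjusted p under 0.05, all negative. Of all genes tested 53.2% had a negative difference and 6.34% an unadjusted p under 0.05. Among the 473 genes over 10-fold above the reference in controls the shares were 68.5% and 18.6%. Without slide column in the fit, 1 of the 14, Kng1, had an unadjusted p under 0.05, against 1.53% of all genes tested. Kng1, a kininogen that releases bradykinin, averaged 8.25 ± 0.27 (SD, n = 4) among the controls, while the mixture arrays averaged 7.75 ± 0.20 (SD, n = 4). Its difference of -0.50 (SE 0.11, limma adjusted p = 0.301) was -0.49 in column 1 and -0.51 in column 2. Kng2, a related kininogen, differed by -0.32 and Fgb, the fibrinogen beta chain, by -0.29, both with an adjusted p above 0.45. Probes for related genes of a family such as these kininogens may share signal.

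Of 21 other complement genes 13 were tested, 9 with a negative difference (7 with median centring) and a median of -0.09. That median was -0.02 with median centring and -0.01 in Cy5 alone. The 3 with the smallest p were Clu, clusterin, an inhibitor of the terminal complex, at -0.23, C1qc, a chain of the recognition molecule C1q made by macrophages, at 0.16, and Vtn, vitronectin, at -0.14. The other chains of C1q, C1qa and C1qb, differed by -0.00 and -0.11. The reference channel of these probes differed as well, by 0.16 for C1qa, 0.23 for C1qb and 0.09 for C1qc in Cy3 alone. In Cy5 alone C1qa, C1qb and C1qc all had positive differences, of 0.18, 0.14 and 0.20. Of 20 regulators 11 were tested, 7 with a negative difference and a median of -0.07. Stat3, which carries the interleukin 6 signal, differed by -0.31 (SE 0.11, limma adjusted p = 0.683), with -0.16 and -0.45 in the columns. Onecut1, a hepatocyte transcription factor, differed by -0.45 (SE 0.24), and Il6st, the shared receptor subunit of interleukin 6, by -0.08. The cytokine genes Il6 and Tnf and the feedback inhibitor Socs3 did not pass the filter on dim probes.

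Markers of liver cell types were read beside these values. All 6 hepatocyte markers had negative differences (4 of 6 in Cy5 alone), from -0.35 (Cps1) to -0.09 (Apoa1), with summed signals above background of 705290 to 800592 intensity units on control and 618159 to 846455 on mixture arrays. Alb and Ttr stand on both this list and that of other acute phase genes. All 7 Kupffer cell markers, of the resident macrophages of liver, had positive differences (5 of 7 with processed signals and 6 of 7 in Cy5 alone or in the deposited values), from 0.01 (Clec4f) to 0.37 (Cd5l and Adgre1, at 0.28 and 0.22 in Cy5 alone, both with no array where the Cy3 spot was marked well above background), and their sums ran from 3854 to 5640 on control and from 3703 to 8164 on mixture arrays. Of 7 neutrophil markers 3 were tested (S100a8, S100a9 and Camp), all negative, and 3 were not well above background on any array. Over all genes tested 53.2% of differences were negative and 46.8% positive. Among the 473 genes over 10-fold above the reference in controls the shares were 68.5% and 31.5%. None of these markers passed the threshold. Their part in the differences of the members was not tested.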

How the data were processed

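Liver RNA of 4 control and 4 mixture pools was labelled with Cy5 and reference RNA with Cy3 in the same orientation on all arrays, per the labels' protocols. Groups and replicate numbers came from the sample titles. Per the file headers, spot intensity values were made with Agilent Feature Extraction 11.0.1.1, and the deposited median foreground and background intensity columns were used. The deposited value table held log2 ratios, with no account of the steps behind them in the labels or headers. They were set against log2 ratios of the same array made here with loess and no background correction. There r was 0.997 to 0.998 and the slope 0.995 to 1.00, which settles scale and direction. Column medians were -0.0389 to -0.0326, and how the table was centred is unknown. These values were an alternative.

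The limma package 3.58.1 under R 4.3.3 was used. Normexp with an offset of 50 corrected the background, and arrays were normalised by loess with control spots at no weight. Outlier spots, 771 to 956 an array, were dropped and spots of a probe averaged. Of 30367 probes 18005 received a symbol through a RefSeq table (GRCr8, names only), and 11406 passed the filter, which asked for a Cy5 mark of well above background on 3 or more of the 4 arrays in either group. The brightest probe stood for a gene. Log2 ratios of all 10566 genes were fitted with lmFit and eBayes with group and slide column, two-sided, with Benjamini-Hochberg adjustment over all of them and a threshold of 0.05. All p-values are limma's. Within-column values are differences of means of 2 arrays. The fit was tested on simulated data. No spot was saturated. Any dye bias is shared by both groups and was not measured.

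The members, lists, rules and tests were chosen with earlier results of these data known. Values on every array were given, by rule, for the 5 members of each class with the smallest p, the 3 with the largest residual spread, and Saa4, Crp, Hp and C3, and in addition, after the values were seen, for Mbl1. Of related genes the 3 with the smallest p per list were named, with C1qa and C1qb given beside C1qc. Alternatives changed background correction, scaling, filter, probe choice, slide terms and arrays left out.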

Additional observations from a re-analysis of the deposited data

Results flagged for a closer look

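In 64 sets of 4 arrays (32 members in each group), 1 held an array far from the other 3 relative to the range, where chance gives about 1 in 20. Serpina3n, a serine protease inhibitor, read 3.82 on control replicate 6, while the other control arrays read 4.05 to 4.08. The gap was 0.881 of the range, above the critical 0.829. Each set of 4 arrays spanned both slide columns with the column difference left in, which the rate of 1 in 20 does not allow for. Serpina3n differed between the columns by -0.40 (limma adjusted p = 0.018). Control replicate 6 lay in column 2, as did control replicate 8, which read 4.07.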

How the results depend on the processing

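No paired analysis was possible because the control pools are numbered 5 to 8 and the mixture pools 1 to 4, so no number is shared. No member passed the threshold under any of 21 alternatives, and the smallest adjusted p was 0.103, for Lbp without control replicate 5. The count of all genes past the threshold was 5, and it was 1 without slide column, 0 with slide row in its place, 2 in column 1 alone, 0 in column 2 alone, 0 with processed signals, 3 with median centring, 14 in Cy5 alone, 3 with a trended robust prior and 1 to 11 with single arrays left out. The acute phase median ran from -0.27 to -0.03 and the complement median from -0.16 to -0.04. Dropping slide column or fitting slide row could not move a difference or its sign, because the groups were balanced over both. A trended robust prior changes only SE and p. With no filter on dim probes the medians were -0.15 and -0.12, as in the main fit. Members with a negative difference numbered 19 (column 1 alone) to 30 (without control replicate 5). Negative differences kept their sign under all 21 for Saa4, Lbp, Hp, Hpx, A2m, Itih4, C1s, C1r, C4bpa, C6, C9, Cfb, Cfi and Masp1. The positive differences of Crp and Mbl2 did so too. Signs turned in column 1 alone for Cp (-0.21), Serpina1 (0.00054), Serpina3n (0.069), Ahsg (0.12), Itih1 (0.044), Itih3 (0.0050), C2 (0.025), C8b (0.0043), Cfd (0.14) and Masp2 (0.064), and in column 2 alone for C8a (0.039) and Mbl1 (0.058). With processed signals they turned for Cp (-0.043) and C8b (0.0023), with median centring for C3 (0.017) and Mbl1 (0.00091), and in Cy5 alone for Orm1 (0.037), Serpina1 (0.062), Ahsg (0.048), C3 (0.0042) and Mbl1 (0.0073). Leaving out single arrays moved the difference by over 1.5 times for 24 of 32 members, the other 8 being Saa4, Lbp, A2m, Serpina1, Itih3, Itih4, Cfi and C4bpa. Among the 24, the range crossed 0 for Apcs (-0.0039 to 0.15), Cp (-0.069 to 0.12), Lcn2 (-0.0038 to 0.35), Orm1 (-0.23 to 0.072), C2 (-0.098 to 0.0012), C8b (-0.12 to 0.028), Cfd (-0.18 to 0.033), Mbl1 (-0.040 to 0.052) and Masp2 (-0.12 to 0.058). Apart from the fewer arrays where these were left out, the cause was not tested. Dim reference spots limit the ratios of Crp, Mbl2, Masp2 and C6, and in part those of Apcs and Mbl1.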
